A study of Mus musculus with 23 samples.

Results

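The 10 genes described here belong to the ATF4 arm of the integrated stress response: Atf4, Ddit3, Trib3, Chac1, Sesn2, Asns, Psat1, Phgdh, Fgf21 and Gdf15. They were found by symbol in the count tables of mouse quadriceps and epididymal fat. The quadriceps table held 8 of the 10 among 12831 genes, with no row for Fgf21 and Gdf15, and the fat table held all 10 among 16962 genes. Quadriceps RNA came from 11 mice (no tumor, n = 3; KPC, n = 4; KPC IL6KO, n = 4) and epididymal fat RNA from 4 other mice per group, 23 libraries in all with 1 mouse per library. All were male C57BL/6J mice that had surgery at 8 weeks of age. No tumor mice had a sham operation. KPC mice received, in the pancreas, cells of a line from a pancreatic tumor of a genetically engineered mouse carrying Pdx1-Cre, here 1 clone transfected with a CRISPR/Cas9 plasmid carrying a null guide. KPC IL6KO mice received 1 clone of the same line edited in Il6, so clone and edit cannot be told apart. The mice themselves were not edited, and Il6 levels in muscle or fat therefore cannot check the labels. All groups were euthanized together, when the KPC group had reached the humane endpoint. The comparisons ask how muscle and fat differ between mice with no tumor, with a tumor and with a tumor grown from cells edited in Il6. The authors found IL-6 in the stroma of both kinds of tumor.

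In the integrated stress response, kinases that sense amino acid shortage, unfolded protein, heme shortage or double-stranded RNA phosphorylate the initiation factor eIF2, which lowers translation in general and raises translation of the Atf4 mRNA. The ATF4 protein then binds C/EBP-ATF response elements and switches on genes for amino acid uptake and synthesis, tRNA charging, redox balance and feedback. In muscle the response is best known for the circulating factors FGF21 and GDF15 that stressed fibers release, and ATF4 itself has been tied to fiber atrophy. An mRNA level does not report how much ATF4 protein was made. By Western blot of quadriceps, the authors reported more ATF4 protein with KPC tumors and no such rise with KPC IL6KO tumors.

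The core of the C/EBP-ATF response element, TGATGNAA, was looked for on both strands of the promoter windows that RefSeq gives for the genes (build GRCm38.p6, 250 bases before to 50 after a start site). It was present for 4 of the 10 genes, in 4 of 12 windows, and in 3.97% of 32817 mouse promoter windows. The 30 bases around each match are shown because these elements are the DNA through which ATF4 acts, with the motif in capitals and read along the gene's strand.
Chac1, chr2:119351038-119351067: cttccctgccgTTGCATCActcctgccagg
Trib3, chr2:152344028-152344057: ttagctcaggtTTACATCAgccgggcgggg
Asns, chr6:7693214-7693243: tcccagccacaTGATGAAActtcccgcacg
Fgf21, chr7:45615611-45615640: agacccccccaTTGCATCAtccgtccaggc
Asns carried the motif on its own strand, and Chac1, Trib3 and Fgf21 on the other strand. The match began 193 bases before the RefSeq start site in Chac1, 139 bases before it in Fgf21 and 23 bases before it in Asns, and 14 bases after it in Trib3. Atf4, Ddit3, Sesn2, Psat1, Phgdh and Gdf15 had no match in their windows.

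Total counts per library ran from 19259763 to 74907810 in quadriceps and from 26306377 to 56308545 in fat. Levels are given as CPM (counts of a gene scaled by the total of its library) after TMM normalization, and 3 counts, taken as the limit of detection, equalled 0.0462 to 0.154 CPM in quadriceps and 0.0474 to 0.123 CPM in fat, which covers counting error only. Mice of a group varied more in fat, with a coefficient of variation of 63.5%, than in quadriceps, with 22.7%. A gene was called when edgeR's quasi-likelihood test gave a Benjamini-Hochberg FDR of at most 0.05 over all genes of the table and the fold change was at least 1.5. Muscle fiber markers defined the quadriceps libraries, at 127847 to 203213 CPM summed over 9 genes, with 127847 to 146325 in KPC and 162204 to 203213 in the other groups. The fat libraries held all 8 adipocyte markers, at 2066 to 39739 CPM in sum, but also all 10 epididymis markers, at 861 to 97491 CPM.

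In KPC quadriceps, 4 of the 8 measured genes rose over no tumor, where 26.7% of all genes were called up, and 2 fell, where 29% of all genes were called down. Together 6 of 8 were called, against 55.7% of 12831 genes, a share near that of the whole table. Atf4, Trib3, Chac1 and Sesn2 rose, and Phgdh and Ddit3 fell. The genes of the set thus did not move in 1 direction. Their median log2 fold change was 0.87, and that of all genes was -0.03. The CPM values of the groups did not overlap for 5 of the 8, Atf4, Trib3, Chac1, Sesn2 and Phgdh, against 65.3% of all genes. By direction, 4 of 8 lay higher in KPC (32.3% of all genes) and 1 lower (33% of all genes).

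**Figure D1:**
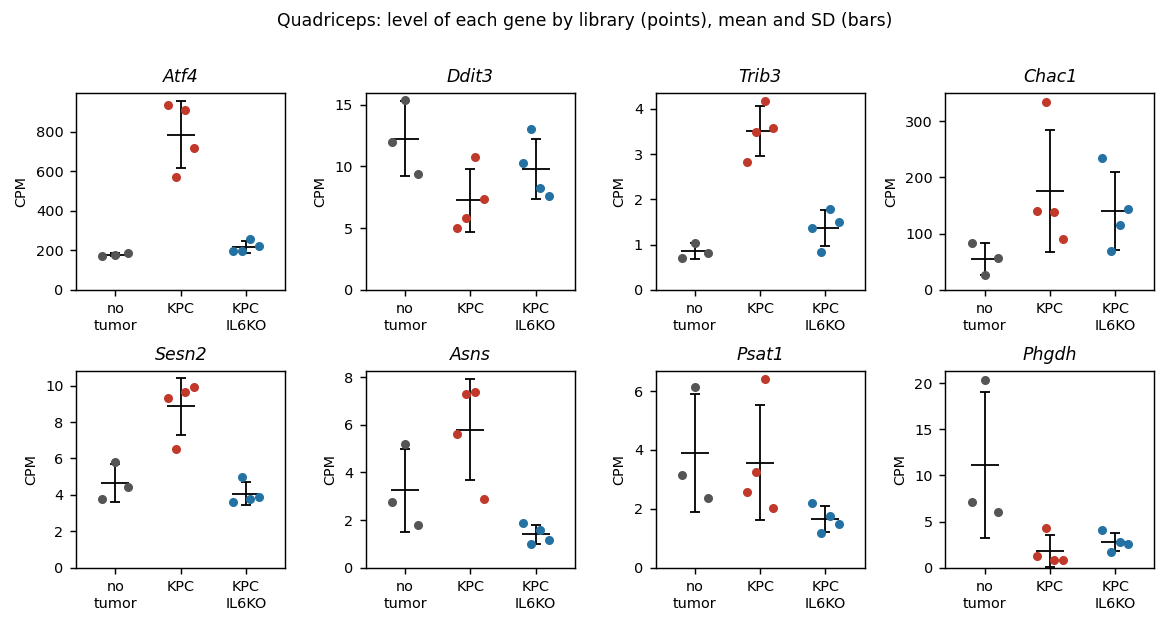
CPM of each gene in the 11 quadriceps libraries (points) with the group mean and SD (bars), for no tumor (n = 3), KPC (n = 4) and KPC IL6KO (n = 4). Atf4 in KPC lies between 574 and 936 CPM, above all libraries of the other groups, whereas Phgdh is highest in no tumor.

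Atf4 (chromosome 15, 80255184 to 80257541 on mm10), the transcription factor at the center of the response, stood at 172, 177 and 187 CPM in the no tumor muscles. In KPC it stood at 936, 574, 912 and 721 CPM, and in KPC IL6KO at 195, 198, 259 and 219 CPM. Every KPC library lay above every other library, and the KPC IL6KO libraries lay just above those of no tumor without overlap. Atf4 averaged 178 ± 7.56 CPM in no tumor (SD, n = 3) and 786 ± 171 CPM in KPC (SD, n = 4). This 4.40-fold rise was a log2 fold change of 2.14 (SE 0.18, edgeR FDR 3.05e-06). Per kilobase of exon, Atf4 had the highest mean level of the 8 genes in each quadriceps group, at 75.7 in no tumor, 333 in KPC and 92.4 CPM per kb in KPC IL6KO. In bulk muscle, more cells of a type and more RNA per cell cannot be told apart. Markers of other cell types moved with the KPC group: all 5 fibroblast markers were called lower (159 to 264 CPM in sum, against 919 to 1008 CPM in no tumor and 512 to 779 CPM in KPC IL6KO), and the 4 neutrophil markers in the table were called higher (4.50 to 21.8 CPM, against 0.359 to 0.779 CPM and 2.14 to 4.13 CPM). Their part in the changes of the 8 genes was not tested.

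Ddit3 (chromosome 10, 127290774 to 127296288) encodes CHOP, a factor that ATF4 induces and that promotes cell death under lasting stress. It moved opposite to Atf4. Its level was 12, 15.4 and 9.37 CPM in no tumor, 5.02, 5.84, 10.8 and 7.40 CPM in KPC, and 10.2, 13, 8.24 and 7.63 CPM in KPC IL6KO. KPC 3 lay within the no tumor range, and the other KPC libraries lay below it. Ddit3 fell 1.70-fold in KPC, a log2 fold change of -0.76 (SE 0.27, edgeR FDR 0.0273), and the call was lost when any of KPC 1, KPC 2, no tumor 1 or no tumor 2 was left out, with an FDR from 0.0633 to 0.132. Ddit3 overlaps Mars on the opposite strand, a tRNA synthetase gene that rose in KPC (log2 fold change 1.11, edgeR FDR 0.000272), and whether counting used strand is not given in the sources used here.

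Trib3 (chromosome 2, 152337422 to 152344032) encodes a pseudokinase that restrains AKT and is itself a target of ATF4 and CHOP. It had few counts, 16 to 53 in a no tumor library and 183 to 255 in a KPC library. The CPM was 0.71, 1.04 and 0.820 in no tumor, 2.82, 3.49, 4.17 and 3.58 in KPC, and 1.36, 0.842, 1.79 and 1.49 in KPC IL6KO. All KPC libraries lay above all others, and in KPC IL6KO all but replicate 2 lay above no tumor. Trib3 rose 4.09-fold in KPC (log2 fold change 2.03, SE 0.28, edgeR FDR 7.18e-05).

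Chac1 (chromosome 2, 119351229 to 119354381), which encodes an enzyme that degrades glutathione, had the second highest level per kilobase of exon in each quadriceps group. Its level was 83.0, 25.7 and 56.6 CPM in no tumor, 140.2, 335, 139 and 90.9 CPM in KPC, and 234, 68.9, 115 and 143 CPM in KPC IL6KO. KPC lay above no tumor in all libraries, but KPC IL6KO covered much of the KPC range. Chac1 rose 3.20-fold in KPC (log2 fold change 1.68, SE 0.53, edgeR FDR 0.0147), and without no tumor 2 the call was lost (FDR 0.0591).

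Sesn2 (chromosome 4, 132492032 to 132510501), which encodes sestrin 2, a leucine-sensing inhibitor of mTORC1, was the least changed of the genes that rose. It was at 3.76, 5.82 and 4.41 CPM in no tumor, at 9.33, 6.52, 9.65 and 9.94 CPM in KPC, and at 3.60, 4.98, 3.78 and 3.89 CPM in KPC IL6KO. The lowest KPC library, replicate 2, still lay above the highest no tumor library. The rise was 1.90-fold (log2 fold change 0.92, SE 0.21, edgeR FDR 0.00187). The noncoding gene Gm12981 overlaps Sesn2 on the same strand, so some reads could belong to it.

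Of the 3 biosynthetic enzymes, none was called higher in KPC than in no tumor. Asns (chromosome 6, 7675169 to 7693254), asparagine synthetase, was at 2.75, 5.19 and 1.79 CPM in no tumor, 5.62, 7.29, 7.40 and 2.88 CPM in KPC, and 1.87, 0.999, 1.59 and 1.17 CPM in KPC IL6KO. No tumor 2 and KPC 4 made the first pair of groups overlap, and KPC lay wholly above KPC IL6KO. The log2 fold change of Asns in KPC over no tumor was 0.81 (SE 0.39, 95% interval -0.04 to 1.67, edgeR FDR 0.0849), which passed the threshold without no tumor 2 (FDR 0.0168), without KPC 4 (FDR 0.0211), with DESeq2 (FDR 0.0398) and with the replicate number as a block (FDR 0.0481).

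Psat1 (chromosome 19, 15904678 to 15947337), phosphoserine aminotransferase of the serine pathway, was at 3.15, 6.15 and 2.36 CPM in no tumor, 2.57, 3.25, 6.41 and 2.03 CPM in KPC, and 2.19, 1.17, 1.76 and 1.49 CPM in KPC IL6KO. No tumor and KPC covered nearly the same range. The log2 fold change was -0.14 (95% interval -1.04 to 0.76, edgeR FDR 0.776). The pseudogene Gm3329 overlaps Psat1 on the opposite strand.

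Phgdh (chromosome 3, 98313170 to 98339990), the first enzyme of serine synthesis, fell the most. Its level was 7.12, 20.3 and 6.04 CPM in no tumor, 1.26, 4.35, 0.802 and 0.866 CPM in KPC, and 4.04, 1.70, 2.78 and 2.57 CPM in KPC IL6KO. All libraries of both tumor groups lay below all no tumor libraries, and KPC 2 stood apart from the other KPC libraries. From no tumor to KPC, Phgdh fell 6.16-fold (log2 fold change -2.62, SE 0.61, edgeR FDR 0.0024). The size depended on single libraries, with a log2 fold change of -1.86 without no tumor 2 and -3.52 without KPC 2.

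Adipoq, which encodes the adipocyte hormone adiponectin, ranked the quadriceps libraries within each group as Phgdh did, except for KPC 3 and KPC 4. Its level was 70.3, 197 and 35.8 CPM in no tumor, 42.8, 94.0, 9.43 and 0.828 CPM in KPC, and 35.3, 6.05, 21.6 and 18.3 CPM in KPC IL6KO. Between groups the order did not hold, since KPC 1 and KPC 2 had more Adipoq but less Phgdh than no tumor 3. No tumor 2 was the highest library for Adipoq and for Phgdh and the highest of its group for Asns and Psat1, and KPC 2 was the highest of its group for Adipoq and Phgdh. The 8 adipocyte markers, some of which muscle fibers also express, summed to 1482 to 3529 CPM in no tumor, 2095 to 2676 CPM in KPC and 920 to 2601 CPM in KPC IL6KO. Taken gene by gene, their median log2 fold change over no tumor was -1.42 in KPC and -2.19 in KPC IL6KO. In each comparison 1 of the 8 markers was above 0, so the mean log2 CPM of the 8 need not be independent of group. With their mean log2 CPM as a covariate, chosen after seeing the data, Phgdh in KPC was still called lower (log2 fold change -1.70, edgeR FDR 0.00556), Asns was called higher (1.48, FDR 0.00238) and Psat1 went from -0.14 to 0.32 without a call (FDR 0.597). Atf4, Trib3, Chac1 and Sesn2 were still called higher in that fit and Ddit3 lower, which made 7 of 8. The share of all genes called in that fit was not counted.

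**Figure D2:**
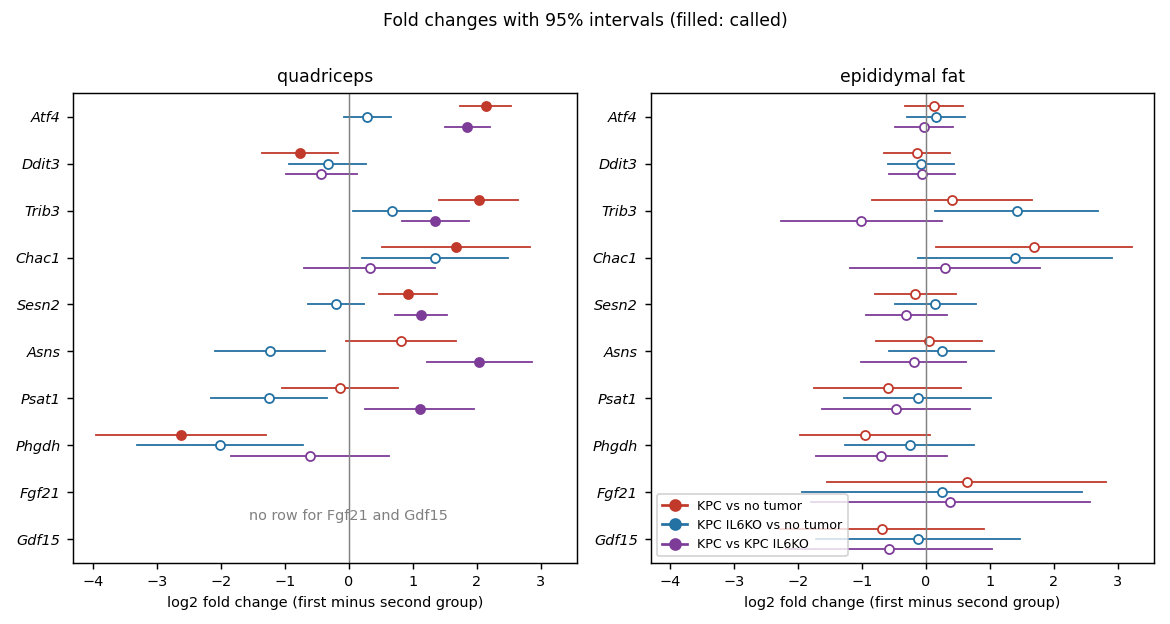
Log2 fold change (x axis, first group minus second) of each gene in quadriceps and epididymal fat, with its 95% interval (lines), for the 3 comparisons. Filled points were called; in quadriceps 6 genes were called in KPC vs no tumor and 5 in KPC vs KPC IL6KO, whereas no point is filled in fat or in KPC IL6KO vs no tumor.

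In KPC IL6KO quadriceps none of the 8 genes was called relative to no tumor by edgeR's quasi-likelihood test, as was so for all 12831 genes (0% called). The authors, with edgeR at the same thresholds, reported a small number of changed genes in this comparison. Unadjusted p-values under 0.05 were reached by 5 of the 8, where 6.91% of all genes had one. These were Phgdh (log2 fold change -2.02, edgeR FDR 0.403), Asns (-1.23, FDR 0.476), Psat1 (-1.25, FDR 0.484), Chac1 (1.35, FDR 0.59) and Trib3 (0.68, FDR 0.597). Groups did not overlap for Atf4, higher in KPC IL6KO, and for Psat1 and Phgdh, lower, which is 3 of 8 against 15.5% of all genes (7.54% higher and 8.01% lower). The 95% interval of the Atf4 log2 fold change ran from -0.08 to 0.66 around 0.29. With DESeq2's Wald test, 1 gene was called, Phgdh, lower (log2 fold change -1.99, FDR 0.0472). With the adipocyte covariate the log2 fold change of Phgdh was -0.86, that of Asns -0.53 and that of Psat1 -0.82, none of them called.

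Between both tumor groups in quadriceps, 5 of 8 genes were higher in KPC than in KPC IL6KO and none was called lower. Over all genes, 26.4% were called higher and 27.3% lower, 53.6% in all. Asns differed most, 4.12-fold, with a mean of 5.80 ± 2.11 CPM in KPC against 1.41 ± 0.397 CPM in KPC IL6KO (SD, n = 4 each; log2 fold change 2.04, SE 0.37, edgeR FDR 0.000472). Atf4 was 3.60-fold higher (log2 1.85, SE 0.16, edgeR FDR 3.12e-06), Trib3 2.56-fold (log2 1.35, FDR 0.000387) and Sesn2 2.18-fold (log2 1.12, FDR 0.00025). The groups did not overlap for these 4 genes, which is 4 of 8, all higher in KPC, against 62% of all genes (31.2% higher). Psat1 was 2.16-fold higher (log2 1.11, SE 0.39, edgeR FDR 0.0242) with overlapping groups, and its call was lost without KPC 3 (log2 0.66, FDR 0.0971), KPC IL6KO 2 or KPC IL6KO 4, or with the replicate number as a block (FDR 0.0549).

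Chac1, Ddit3 and Phgdh were not called between the tumor groups. The difference in Chac1 was 0.33 on the log2 scale (95% interval -0.69 to 1.35, edgeR FDR 0.55), and both tumor groups had means above no tumor, with KPC averaging 176 ± 108 CPM and KPC IL6KO 140.4 ± 69.7 CPM against 55.1 ± 28.7 CPM. The difference in Ddit3 was -0.43 (-0.99 to 0.13, FDR 0.153), and without KPC 3 it was -0.69 and called (FDR 0.0214). The difference in Phgdh was -0.61 (-1.84 to 0.63, FDR 0.356), and it was called lower without KPC 2 (-1.50, FDR 0.013) and with the adipocyte covariate (-0.84, FDR 0.0467). With that covariate 6 of 8 genes were called, and the share of all genes called in that fit was not counted.

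The pattern of Atf4 over the 11 quadriceps libraries was shared closely by other genes. Among the 10519 genes whose log2 CPM averaged 1 or more, the 5 with the highest Pearson correlation to Atf4 were Ppm1g (r = 0.999), Scaf11 (0.999), Cipc, Nob1 and Ubxn4 (each 0.998). These libraries share their groups, and the KPC libraries lie apart from the rest, so the coefficients mainly follow that gap. On the same measure the coefficient was 0.893 for Sesn2, 0.665 for Asns, 0.436 for Chac1, 0.279 for Psat1, -0.639 for Ddit3 and -0.721 for Phgdh. Trib3 was below the level set for this measure.

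**Figure D3:**
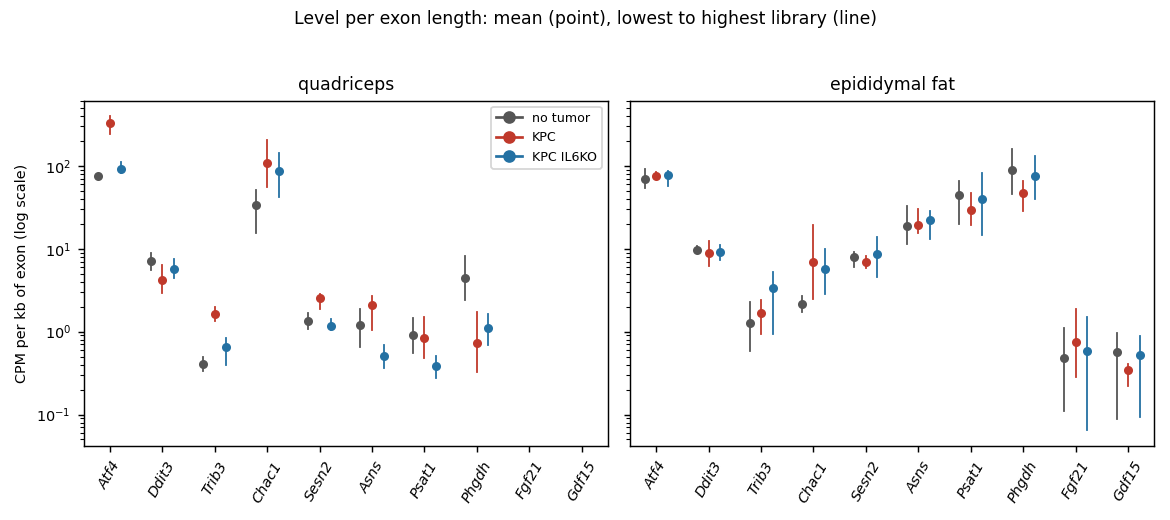
CPM per kilobase of exon (log scale) of each gene in quadriceps and epididymal fat; points are group means and lines run from the lowest to the highest library. Atf4 in KPC quadriceps, at a mean of 333 CPM per kb, is the highest level, and Fgf21 and Gdf15 have no row in the quadriceps table. In each group the means of Phgdh, Psat1, Asns, Sesn2, Ddit3 and Trib3 are higher in fat than in muscle, though nearly equal for Trib3 in KPC.

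The order of levels differed between the tissues. The tables were normalized separately and the tissues were extracted and sequenced separately, so levels are set side by side without a test. In no tumor quadriceps, Atf4 and Chac1 led, at 75.7 ± 3.21 and 33.7 ± 17.5 CPM per kb, followed by Ddit3 at 7.16 ± 1.76 and Phgdh at 4.48 ± 3.19, and Sesn2, Asns, Psat1 and Trib3 lay between 1.34 and 0.403 CPM per kb (SD, n = 3). Among these last 4, Sesn2, Asns and Psat1 differed by less than their spread. In no tumor fat, Phgdh and Atf4 led, at 90.1 ± 50.6 and 68.7 ± 18.2 CPM per kb, within their spread, and Psat1 followed at 44.1 ± 19.9 and Asns at 18.8 ± 9.97 (SD, n = 4). Ddit3, Sesn2, Chac1 and Trib3 lay between 9.69 and 1.26 CPM per kb. Gdf15 and Fgf21, the secreted factors, had the lowest levels, 0.561 ± 0.363 and 0.487 ± 0.435 CPM per kb.

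**Figure D4:**
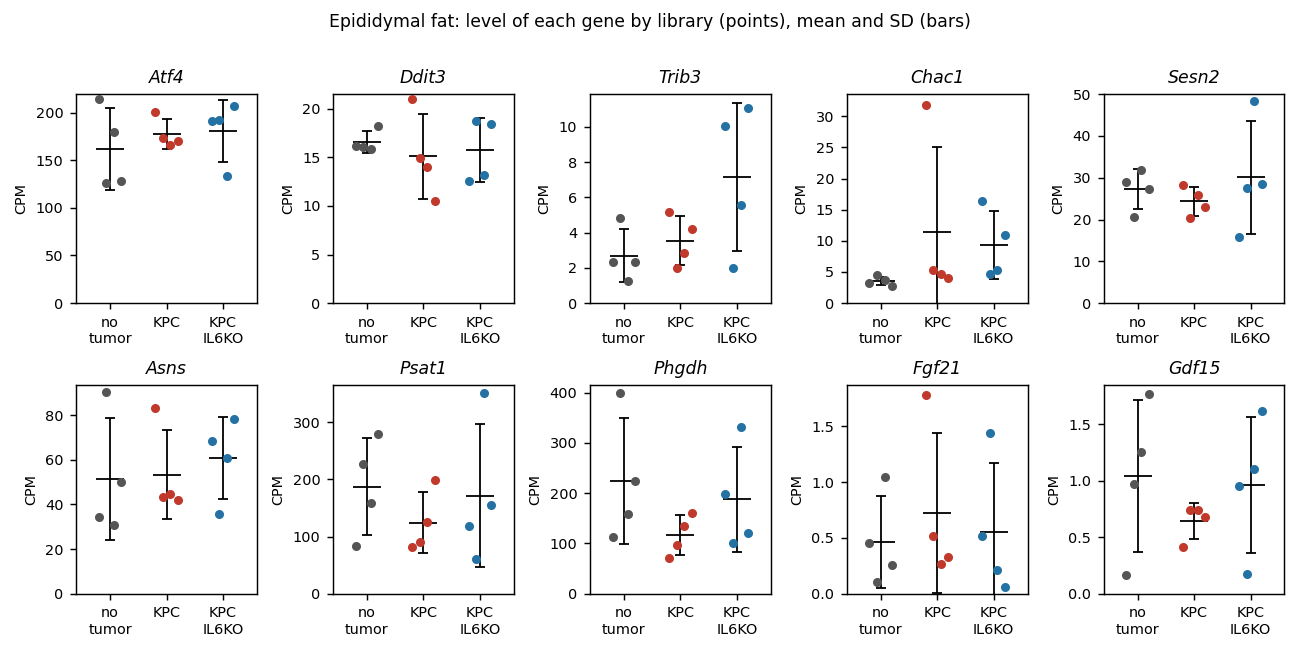
CPM of each of the 10 genes in the 12 epididymal fat libraries (points) with the group mean and SD (bars, drawn down to 0 at most), n = 4 per group. The groups overlap for every gene except Chac1 in KPC IL6KO, and KPC 5 stands out in Chac1, Asns and Fgf21.

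In epididymal fat none of the 10 genes was called in any of the 3 comparisons by edgeR's quasi-likelihood test, and none of 16962 genes was (0% called in each). DESeq2's Wald test and the edgeR likelihood ratio test also called none of the 10, and the share of all genes they called was not counted. With edgeR at the same thresholds, the authors reported changed genes in the fat of both tumor groups. The 0% thus holds for the quasi-likelihood test used here. For KPC and no tumor, the groups overlapped for all 10 genes, where 10.9% of all genes did not overlap, and the median log2 fold change was -0.04, against -0.10 for all genes. Between KPC and KPC IL6KO they also overlapped for all 10, where 4.33% of all genes did not. Unadjusted p-values under 0.05 were reached by 1 of the 10 genes, Chac1, in KPC (12.2% of all genes), by 1, Trib3, in KPC IL6KO (9.34% of all genes) and by none between the tumor groups (6.26% of all genes).

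Atf4 in fat was at 215, 126, 179 and 128 CPM in no tumor, 200.3, 173, 166 and 170.1 CPM in KPC, and 191, 192, 133 and 207 CPM in KPC IL6KO. The groups covered the same range. The log2 fold change was 0.13 in KPC (95% interval -0.33 to 0.59, edgeR FDR 0.813) and 0.16 in KPC IL6KO (-0.30 to 0.61, FDR 0.787), so a rise of the size seen in KPC muscle lies outside both intervals. Ddit3, at 10.5 to 21 CPM, and Sesn2, at 15.9 to 48.4 CPM, also covered like ranges in the 3 groups, with log2 fold changes between -0.31 and 0.14.

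Chac1 was low in the no tumor pads, at 3.23, 4.46, 3.72 and 2.81 CPM. It was at 31.9, 5.30, 4.65 and 4.07 CPM in KPC and at 16.5, 4.70, 5.38 and 10.9 CPM in KPC IL6KO. KPC 5 stood far above the other KPC pads, and only KPC 8 kept the groups from parting. All KPC IL6KO pads lay above all no tumor pads, 1 of 10 genes against 2.01% of all genes (1.52% higher). The 9 muscle fiber markers summed to 94.3 to 2618 CPM in these pads, 16.2 to 294 CPM in no tumor and 8.73 to 11.5 CPM in KPC. Macrophage markers summed to 196 to 843 CPM in no tumor, 913 to 1519 CPM in KPC and 336 to 2307 CPM in KPC IL6KO, and neutrophil markers to 2.79 to 6.37, 21.9 to 52.5 and 4.32 to 62.8 CPM. None of these lists had a called gene, and their part in the level of Chac1 was not tested. The log2 fold change was 1.69 in KPC (SE 0.69, edgeR FDR 0.369) and 1.40 in KPC IL6KO (SE 0.69, FDR 0.575), and neither was called. Without KPC 5 the value in KPC was 0.39.

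Trib3 was at 2.33, 4.81, 1.26 and 2.34 CPM in no tumor, 5.17, 2.01, 2.83 and 4.2 CPM in KPC, and 10.04, 1.99, 5.56 and 11.1 CPM in KPC IL6KO. All KPC IL6KO pads but replicate 6 lay above the no tumor pads. Its log2 fold change was 0.40 in KPC (edgeR FDR 0.784) and 1.42 in KPC IL6KO (SE 0.58, FDR 0.496).

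The serine pathway genes were abundant and variable in fat. Phgdh was at 114, 399.7, 158 and 225 CPM in no tumor, 71.1, 97.0, 134 and 162 CPM in KPC, and 199, 100.2, 331 and 120.5 CPM in KPC IL6KO. The KPC pads lay at or below the lower part of the no tumor range, and the groups overlapped. Its log2 fold change was -0.95 in KPC (SE 0.47, edgeR FDR 0.45) and -0.26 in KPC IL6KO (FDR 0.849). Psat1 ran from 84.0 to 279.5 CPM in no tumor, 81.5 to 199 CPM in KPC and 61.5 to 351 CPM in KPC IL6KO, with a log2 fold change of -0.60 in KPC (FDR 0.681). Asns ran from 31.0 to 90.5, 41.8 to 83.3 and 35.8 to 78.5 CPM, with a log2 fold change of 0.05 in KPC (FDR 0.969).

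The secreted factors FGF21, a regulator of energy use, and GDF15, which acts on the brain stem to lower appetite, were scarce in fat. Fgf21 had 3 to 45 counts in a no tumor library, 8 to 61 in a KPC library and 2 to 42 in a KPC IL6KO library. KPC 5 (1.78 CPM) and KPC IL6KO 6 (1.44 CPM) were the highest, and the lowest KPC IL6KO library, at 2 counts, was under the limit of detection. Gdf15 ran from 0.164 to 1.77 CPM in no tumor, 0.409 to 0.745 CPM in KPC and 0.171 to 1.62 CPM in KPC IL6KO. The log2 fold change in KPC was 0.64 for Fgf21 (95% interval -1.55 to 2.82, edgeR FDR 0.81) and -0.70 for Gdf15 (-2.30 to 0.91, FDR 0.714). A several-fold rise of Fgf21 and a several-fold fall of Gdf15 thus lie within these intervals.

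The pads differed in how much epididymis they held. The epididymis markers summed to 94759, 15187, 77864 and 21012 CPM in no tumor 5 to 8, to 43724, 70422, 48342 and 46124 CPM in KPC 5 to 8, and to 861, 97491, 17884 and 11378 CPM in KPC IL6KO 5 to 8. In no tumor, the pads with most epididymis signal, 5 and 7, had the higher Atf4 and the lower Phgdh and Psat1. In KPC, replicate 5 had the least epididymis signal of its group with the highest Atf4 and the lowest Phgdh and Psat1. In KPC IL6KO, replicate 6 had the most epididymis signal with the lowest Phgdh (100.2 CPM) and Psat1 (61.5 CPM). Its Atf4 was nearly the same as that of KPC IL6KO 5, the pad with the least epididymis signal. Apart from a fit with these markers as a covariate, their part in the results was not tested. In that fit none of the 10 genes was called in any comparison. Over the 12 fat libraries the Pearson correlation of log2 CPM with Atf4 was -0.812 for Phgdh and -0.793 for Psat1, as a description.

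Whether a gene responded differently in the tissues was tested as the interaction of tissue and group over the 12599 genes in both tables. This test took the same spread for a gene in both tissues, although mice of a group varied more in fat than in quadriceps. For KPC over no tumor, 2 of 8 genes differed, Atf4 and Sesn2, where 38.6% of all genes did. The Atf4 log2 fold change was 1.89 higher in quadriceps than in fat (SE 0.27, edgeR FDR 3e-05). For Sesn2 it was 0.97 higher (SE 0.38, FDR 0.0489), close to the threshold and lost in most fits that left out 1 library. Differences of 1.51 for Trib3 (FDR 0.077), -1.76 for Phgdh (FDR 0.0919), -0.74 for Ddit3 (FDR 0.116) and 0.66 for Asns (FDR 0.378) did not pass. The difference for Chac1 was -0.11 (SE 0.89, FDR 0.935), and it was 1.18 without fat KPC 5. For KPC IL6KO over no tumor the same test called none of the 8 and none of all genes (0%).

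The wider pathway was described through 9 lists of genes in quadriceps, whose counts stand beside 26.7% of all genes called up and 29% called down in KPC over no tumor. The first list held the eIF2 kinases, phosphatase subunits, eIF2 itself, the subunits of its exchange factor eIF2B, Impact and Dnajc3. Of its 16 measured genes, 12 were called up in KPC over no tumor and 2 down, with a median log2 fold change of 0.99. Ppp1r15a, which encodes GADD34, the phosphatase subunit that ends the response, went from 36.5 ± 1.61 to 544 ± 198 CPM (log2 fold change 3.90, edgeR FDR 1.24e-06), with 40.3 ± 3.81 CPM in KPC IL6KO. Impact, an inhibitor of the amino acid sensor GCN2, rose by 1.73 on the log2 scale. Eif2ak2, which encodes the RNA-sensing kinase PKR, and Eif2ak3, which encodes the endoplasmic reticulum kinase PERK, had log2 fold changes of -1.70 and -0.69 and were called lower.

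Of the bZIP partners and other stress transcription factors, 5 of 11 were called up and 2 down (median 0.51). Cebpd (3.92) and Cebpb (1.43), which encode C/EBP factors, rose on the log2 scale, whereas Nupr1 (-1.48), a stress-induced cofactor, and Jdp2 (-0.65), a repressor of AP-1, fell. Cebpb in KPC was at 87.7 ± 17.0 CPM (SD, n = 4), with 32.5 ± 4.13 CPM in no tumor and 20.9 ± 4.62 CPM in KPC IL6KO.

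**Figure D5:**
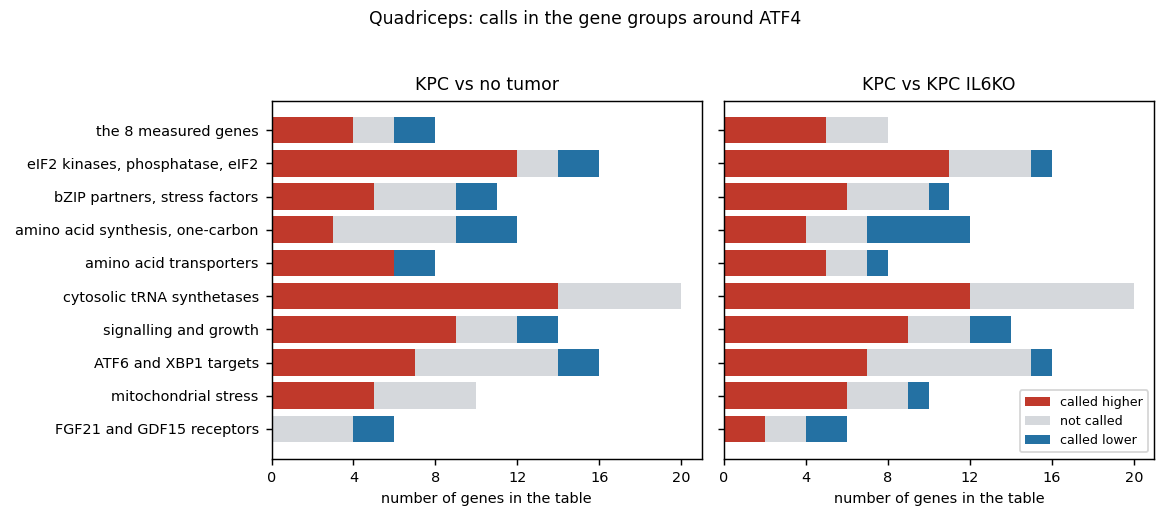
Number of genes called higher (red), not called (grey) and called lower (blue) in quadriceps, for the 8 measured ATF4 genes and 9 lists around them, in KPC vs no tumor (left) and KPC vs KPC IL6KO (right). The cytosolic tRNA synthetases were called in 1 direction, 14 and 12 of 20 higher, whereas amino acid synthesis genes were called both ways.

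Cytosolic tRNA synthetases, which charge tRNAs with amino acids, were called up in 14 of 20 genes and down in none (median log2 fold change 0.85). Vars went from 49.7 ± 6.72 to 238 ± 57.9 CPM (log2 2.26, edgeR FDR 3.2e-06) and Eprs from 259 ± 22.4 to 656 ± 80.3 CPM (log2 1.34, FDR 5.32e-06). Amino acid transporters were all called, 6 of 8 up and 2 down (median 1.13). Slc7a5, the leucine transporter LAT1 (2.40), and Slc7a2, a carrier of cationic amino acids (1.83), rose, and the neutral amino acid transporters Slc1a5 (-1.90) and Slc1a4 (-1.36) fell. The fall of Slc1a5 moved with the same library as that of Phgdh, since no tumor 2 held 216 CPM against 83.1 and 66.3 CPM in its group, and without it the log2 fold change was -1.20 and not called (edgeR FDR 0.0661).

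Genes of amino acid synthesis and one-carbon metabolism were called both ways, 3 of 12 up and 3 down, with a median of 0.07, shares near those over all genes (26.7% up and 29% down). Cbs, of the transsulfuration path, rose by 3.01 on the log2 scale and Got1, which makes aspartate, by 1.31. Psph, the last enzyme of serine synthesis, and Aldh1l2, of mitochondrial folate metabolism, had log2 fold changes of -1.90 and -1.46. Psph went from 11.2 ± 0.145 CPM in no tumor to 3.01 ± 1.30 CPM in KPC (edgeR FDR 0.000103), and stood at 11.1 ± 1.40 CPM in KPC IL6KO. Of the 3 enzymes from 3-phosphoglycerate to serine, Phgdh and Psph were thus called lower in KPC muscle and Psat1 was not called.

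The list of signalling and growth genes included the largest rises, with 9 of 14 called up and 2 down (median 1.04). Cdkn1a, the cell cycle inhibitor p21, went from 19 ± 1.75 to 493 ± 245 CPM (log2 4.70, edgeR FDR 1.04e-05) and Sesn1, a sestrin that p53 and FoxO factors are known to induce, from 23.9 ± 2.54 to 451 ± 152 CPM (log2 4.24, FDR 1.24e-06). The related genes Trib2 and Sesn3 were called lower, by -2.16 and -0.97. The tribbles and the sestrins thus each had members called in both directions, with Trib3 (2.03) opposite to Trib2, and Sesn1 and Sesn2 (0.92) opposite to Sesn3.

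Other branches of the stress response were called in part. Of the ATF6 and XBP1 targets, 7 of 16 were called up and 2 down (median 0.30), with Dnajb9 (2.02) and Edem1 (1.67) highest and Pdia4 (-1.45) and Sdf2l1 (-0.82) lowest. Of the mitochondrial stress genes, 5 of 10 were called up and none down (median 0.57), among them the protease genes Clpx (1.26) and Clpp (1.17). Receptors and the cofactor of FGF21 and GDF15 were called up in none of 6 genes and down in 2 (median -0.10), Ret (-2.07), the signalling chain of the GDF15 receptor, and Fgfr4 (-0.88).

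Relative to KPC IL6KO, 26.4% of all genes were called up and 27.3% down in KPC quadriceps. The eIF2 list had 11 of 16 called up and 1 down, the bZIP list 6 of 11 and 1, the transporters 5 of 8 and 1, the tRNA synthetases 12 of 20 and none, and amino acid synthesis 4 of 12 and 5. The signalling list had 9 of 14 up and 2 down, ATF6 and XBP1 targets 7 of 16 and 1, mitochondrial stress genes 6 of 10 and 1, and the receptors 2 of 6 and 2. These counts share the KPC libraries with those against no tumor. Between KPC IL6KO and no tumor, edgeR's quasi-likelihood test called none of the genes of any list, with list medians between -0.63 and 0.16 on the log2 scale. The edgeR likelihood ratio test called 1 transporter lower and DESeq2 1 receptor lower.

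In fat none of the genes of these lists was called in KPC over no tumor, and the list medians lay between -0.28 and 0.34 on the log2 scale. The genes with the lowest p of each list were Ddit4, an inhibitor of mTORC1 (log2 fold change 1.00, edgeR FDR 0.285), Aldh1l2 (1.60, FDR 0.324), Fos (1.78, FDR 0.325), Xbp1 (0.62, FDR 0.37), Eif2s2 (0.40, FDR 0.378), Fgfr2 (-0.72, FDR 0.383), Slc38a2 (0.75, FDR 0.397), Trap1 (-0.51, FDR 0.462) and Mars (-0.22, FDR 0.544). Aldh1l2 went from 1.80 ± 0.386 to 5.49 ± 1.15 CPM without overlap (SD, n = 4 each), whereas in quadriceps it was called lower. With the epididymis covariate 2 bZIP genes were called higher, Fos among them (2.39, FDR 0.0451), and 1 ATF6 or XBP1 target lower.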

How the data were processed

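RNA-seq was available for 11 quadriceps and 12 epididymal fat libraries, grouped by their titles. The authors assessed reads with FastQC, aligned them to mm10 with STAR, assigned uniquely mapped reads to genes with featureCounts 1.5.1 and deposited 1 table of raw counts per tissue, without normalization. Genes with low counts had already been left out, by a rule not given in the sources used here, so a missing row says only that a gene was not listed. The sources name different library kits for the same samples. The authors excluded 1 muscle sample of the no tumor group, which is not analysed here.

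Counts were analysed in R 4.3.3 with edgeR 4.0.16 (TMM, filterByExpr, which removed no gene, and the quasi-likelihood test with the 3 groups of a tissue in 1 fit, without a replicate term). SE values follow from the F statistic, and p-values were adjusted by Benjamini-Hochberg over all genes. Replicate numbers label different mice and were not treated as pairs. Libraries were checked for duplicates (chi-square per degree of freedom at least 28.9 in quadriceps and 85.6 in fat), and the scripts were tested on simulated data. Alternatives used DESeq2 1.42.0, limma 3.58.1, the likelihood ratio test, RLE normalization, other filters and fits, an epididymis covariate and leaving out each library, and an adipocyte covariate was added after seeing the data. Genes, lists and tests were chosen with earlier results of these data known. Named genes were all 10 members and, per list, up to 2 called genes with the largest rise and fall in KPC over no tumor in quadriceps and the gene with the lowest p in fat. The genes most like Atf4 were named for quadriceps, and those for fat are not reported here. Mars, Slc1a5 by library and Adipoq were named after their values were seen. Gene positions and exon lengths are from GENCODE M21 and promoter sequences from RefSeq, matched by symbol for 10 of 10 genes. A second, shorter locus named Ddit3 inside the first was merged with it.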

Additional observations from a re-analysis of the deposited data

Results flagged for a closer look

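Each group of 4 libraries was checked for 1 library far from the others, in 46 groups of a gene, and 5 groups had one. Chance gives about 1 in 20. In fat, KPC 5 stood above the other KPC pads in Asns (83.3 CPM), Chac1 (31.9 CPM) and Fgf21 (1.78 CPM), 3 of the 5 in 1 library. Ddit3 stood above its group in fat no tumor 8, at 18.2 CPM. Phgdh stood above its group in quadriceps KPC 2, at 4.35 CPM, the library with the highest Adipoq of the KPC muscles. Without fat KPC 5, the log2 fold change of Chac1 between KPC and KPC IL6KO changed sign.

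The effect of KPC over no tumor differed between quadriceps and fat, by the interaction test, for Atf4 (a difference of 1.89 on the log2 scale) and Sesn2 (0.97). The tissues were also extracted and sequenced separately, and the sources do not agree on the library kits. The within-tissue contrasts share these conditions in both of their arms, and the part of these in the difference was not tested.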

How the results depend on the processing

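In quadriceps, 5 to 7 genes of the set were called for KPC over no tumor and 4 to 6 for KPC over KPC IL6KO under all alternatives, leaving out libraries included. Shares over all genes were counted in the main fits only, so counts from the alternatives have no share beside them. For KPC IL6KO over no tumor DESeq2 called 1. No gene of the set was called in fat under any alternative. With at least 10 counts in every library, 1 gene in place of 2 differed between tissues, and without single libraries 1 to 3 did. Asns in KPC over no tumor was called with DESeq2 (FDR 0.0398), and Ddit3 was lost when only both groups compared were in the fit (FDR 0.0514).

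Replicate numbers mark different mice, and 4 of 10 same-numbered pairs in quadriceps and 6 of 12 in fat correlated above 0.1. With the replicate number as a block, 6 genes were called for KPC over no tumor in quadriceps, with Asns (FDR 0.0481) in place of Ddit3 (FDR 0.073), and 4 for KPC over KPC IL6KO, without Psat1; the block left 0 in fat and 0 for KPC IL6KO over no tumor. In fat under the block, the sign changed for Chac1 in KPC over KPC IL6KO (-0.064) and, in KPC IL6KO over no tumor, for Fgf21 (-0.24) and Gdf15 (0.0069). No paired analysis of the tissue difference was possible because muscle and fat came from separate mice.

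Other signs that turned were all of uncalled log2 differences. With the epididymis covariate these were Asns in KPC IL6KO over no tumor (-0.080) and, in KPC over KPC IL6KO, Asns (0.60), Fgf21 (-0.49), Gdf15 (0.79), Phgdh (0.10), Psat1 (0.48) and Trib3 (0.28), all in fat. With the adipocyte covariate Psat1 in quadriceps KPC over no tumor was 0.32, with at least 10 counts Atf4 in fat KPC over KPC IL6KO was 0.0024, and with voom quality weights the tissue difference of Chac1 was 0.41.

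Leaving out 1 library turned further uncalled signs. In fat KPC over no tumor the values ran from -0.25 to 0.47 for Asns, -0.34 to 0.0027 for Ddit3 and -0.32 to 1.42 for Fgf21. In fat KPC IL6KO over no tumor they ran from -0.17 to 0.019 for Ddit3, -0.81 to 1.04 for Fgf21, -0.49 to 0.27 for Gdf15, -0.68 to 0.18 for Phgdh, -0.76 to 0.15 for Psat1 and -0.19 to 0.36 for Sesn2. In fat KPC over KPC IL6KO they ran from -0.12 to 0.044 for Atf4, -1.0 to 0.71 for Chac1, -0.26 to 0.077 for Ddit3, -0.58 to 1.45 for Fgf21, -0.79 to 0.17 for Psat1 and -0.52 to 0.057 for Sesn2. In quadriceps they ran from -0.19 to 0.69 for Chac1 in KPC over KPC IL6KO, -0.59 to 0.36 for Psat1 in KPC over no tumor and -0.35 to 0.00045 for Sesn2 in KPC IL6KO over no tumor. Tissue differences ran from -0.65 to 1.18 for Chac1 and -0.068 to 0.87 for Psat1. The cause was not tested. Depth limits Fgf21 and Gdf15, with 2 to 61 and 4 to 112 counts per fat library.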
